A study of Mus musculus with 12 samples.

Results

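Germline genes of the PIWI-interacting RNA (piRNA) pathway and of RNA binding were followed in mouse embryonic stem cells (mESCs) and in epiblast-like cells (EpiLCs) that carry either wild-type (WT) or mutant EPOP. The set holds 10 genes, Dazl, Ddx4, Stk31, Mov10l1, Tdrkh, Asz1, Piwil2, Mael, Tdrd1 and Tex19.1, taken by symbol from a list, and all 10 were found among the 19630 gene symbols of the count table. Total RNA was sequenced in 12 libraries, 3 in each of 4 groups. The mESCs are of the E14 line, were grown in 2i/LIF medium on gelatin, and re-expressed either WT EPOP or mutant EPOP. The EpiLCs were made from such mESCs on fibronectin with activin A and bFGF, again with re-expression of WT EPOP or of mutant EPOP. Re-expression is thus common to all 4 groups, and cells without EPOP or never altered were not analysed here. EPOP is an accessory protein of the PRC2.1 form of Polycomb repressive complex 2, and the series asks how it limits the binding of PRC2.1 to chromatin. The sources used here name neither the mutation nor the number of clones behind each kind of cell. In the count table the columns other than WT carry a code without explanation. With WT and mutant EPOP as the only genotypes in the labels, that code was read as mutant, and every direction of mutant against WT below depends on this reading.

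piRNAs are small RNAs of the germ line that guide PIWI proteins to transposon transcripts. Their precursors are cut and trimmed in nuage, a granule beside mitochondria that is built by RNA helicases, Tudor domain proteins and scaffold proteins. Promoters of such genes are rich in CpG, are kept silent in most somatic cells by DNA methylation, and in mESCs are bound and repressed by the variant Polycomb complex PRC1.6. That complex reaches DNA through MGA and MAX, which read the E-box CACGTG, and through E2F6, which reads a site with the core GCGGGA. In 2i medium mESC DNA is low in methylation, and methylation rises as cells move to the epiblast state.

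Promoter windows were looked up because the repressors named above read sequence there. RefSeq sequences (GRCm38.p6, 250 bases before to 50 after the start, for each gene the window nearest its GENCODE start) matched 9 of the 10 genes by symbol, all but Piwil2. The 9 windows of 300 bases held 16 to 38 CpG, with a median of 24, where the median over all 32851 windows of the same length was 7 and the upper quartile 20. CACGTG, which reads the same on both strands, was in 5 of the 9 windows (Ddx4, Mael, Mov10l1, Stk31 and Tdrd1) and in 7.15% of all windows. GCGGGA, searched on both strands, was in 3 of the 9 (Ddx4, Mael and Tex19.1) and in 20% of all windows. Either motif was in 6 of the 9 windows and in 25.1% of all windows, and no match in the windows shown overlaps another. Both motifs contain CG, and the shares of all windows were not matched for CpG and count every window of a gene. They are therefore no test of enrichment. A match is a description of letters and not a bound site. The tests of mutant against WT below cover 9 of the 10 genes and leave out Asz1 for its low counts. Among those 9, Mov10l1 and Dazl had 2 of the 3 largest falls in mutant mESCs. Tex19.1 had the highest level, and Ddx4 and Mael were the 2 genes with both motifs. Of these 2, Ddx4 fell in mutant mESCs and Mael was not called. The 5 windows below are shown for these reasons, a choice made with their values known. They read 5′ to 3′ along the gene, and capitals mark CACGTG and GCGGGA or its reverse complement TCCCGC.
Mov10l1 (chr15:88982744-88983043, plus strand): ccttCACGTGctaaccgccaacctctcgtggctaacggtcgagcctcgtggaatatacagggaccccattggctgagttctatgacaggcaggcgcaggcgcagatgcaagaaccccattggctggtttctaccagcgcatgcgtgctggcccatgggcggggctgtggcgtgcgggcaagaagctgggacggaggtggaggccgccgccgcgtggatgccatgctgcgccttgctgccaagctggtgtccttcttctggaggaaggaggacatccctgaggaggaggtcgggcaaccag
Dazl (chr17:50293571-50293870, minus strand): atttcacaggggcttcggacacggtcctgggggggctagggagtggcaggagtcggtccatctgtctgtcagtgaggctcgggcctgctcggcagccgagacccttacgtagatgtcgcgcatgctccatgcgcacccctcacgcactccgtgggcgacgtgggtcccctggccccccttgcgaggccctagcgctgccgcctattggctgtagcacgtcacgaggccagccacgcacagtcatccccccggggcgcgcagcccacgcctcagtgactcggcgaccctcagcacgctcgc
Tex19.1 (chr11:121145893-121146192, plus strand): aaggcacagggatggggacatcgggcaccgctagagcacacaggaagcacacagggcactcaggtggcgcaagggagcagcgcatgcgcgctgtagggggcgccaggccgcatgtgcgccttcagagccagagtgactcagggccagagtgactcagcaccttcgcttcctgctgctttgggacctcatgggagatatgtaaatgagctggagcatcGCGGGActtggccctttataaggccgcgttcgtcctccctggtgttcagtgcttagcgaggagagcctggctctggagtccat
Ddx4 (chr13:112652261-112652560, minus strand): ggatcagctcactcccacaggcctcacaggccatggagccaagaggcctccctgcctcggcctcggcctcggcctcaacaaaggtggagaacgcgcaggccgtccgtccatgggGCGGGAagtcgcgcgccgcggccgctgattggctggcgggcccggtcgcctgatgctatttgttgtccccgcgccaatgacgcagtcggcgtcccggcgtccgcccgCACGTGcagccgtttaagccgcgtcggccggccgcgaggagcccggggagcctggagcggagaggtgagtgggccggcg
Mael (chr1:166238695-166238994, minus strand): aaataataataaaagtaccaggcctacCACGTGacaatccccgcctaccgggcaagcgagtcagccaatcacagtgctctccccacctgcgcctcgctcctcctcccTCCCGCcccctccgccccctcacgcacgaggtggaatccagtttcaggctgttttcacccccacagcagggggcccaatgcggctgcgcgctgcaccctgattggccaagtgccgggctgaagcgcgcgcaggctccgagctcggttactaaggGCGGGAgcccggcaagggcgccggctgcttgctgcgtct
The Dazl window held neither motif, as was the case for Tdrkh and Asz1. No match says only that these letters are not in the window.

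Depth ranged from 7714164 to 10652151 counts in named genes. The labelled states were checked against their defining markers, of which 10 of 10 naive markers were lower and 8 of 8 EpiLC markers higher in EpiLCs, with either EPOP. Principal components of genes at 10 CPM or more put the states apart on the first axis (89.5% of the variance). WT and mutant cells were apart on the second axis (4.26%) and also, within each state, on the first. There mutant mESCs were at -46.64 to -47.01 and WT mESCs at -41.28 to -41.91. Mutant EpiLCs were at 47.53 to 48.2 and WT EpiLCs at 40.36 to 40.67, so mutant libraries lay further out in both states. No library stood apart from its group. Epop mRNA, listed as E130012A19Rik, was at 472.9 ± 10.8 CPM (SD, n = 3) in WT and 468.7 ± 6.16 CPM in mutant mESCs, and at 208.8 ± 3.34 and 206.6 ± 9.42 CPM in WT and mutant EpiLCs, so its level does not check the labels. CPM are counts scaled to a library of fixed size after TMM normalization. Since the labels name no separate cultures behind the replicates, p-values reflect only how far these libraries differ, and that spread may be technical.

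Per transcript length, Tex19.1 stood highest of the 10 genes in all 4 groups. In the authors' deposited TPM (a transcript level that divides by length and so allows genes to be compared), its mean level was 127.3 ± 3.36 (SD, n = 3) in WT mESCs, 90.23 ± 7.14 in mutant mESCs, 51.33 ± 5.02 in WT EpiLCs and 26.18 ± 2.87 in mutant EpiLCs. Dazl was next in WT mESCs, at 19.12 ± 1.71 TPM, followed by Ddx4 at 11.26 ± 0.768 TPM. Mov10l1, Mael, Stk31, Piwil2 and Tdrkh followed in that order, between 5.928 and 2.431 TPM, where the replicate ranges of Mov10l1 and Mael overlapped and so did those of Mael and Stk31. Asz1 at 0.8144 and Tdrd1 at 0.3766 TPM were the lowest. In WT EpiLCs Tex19.1 was followed by Mael, at 23.56 ± 1.35 TPM, and Ddx4, at 19.3 ± 1.32 TPM, and Dazl, Piwil2 and Mov10l1, at 10.32, 9.804 and 8.924 TPM, had overlapping ranges from one to the next. In mutant mESCs, Dazl and Ddx4 overlapped, at 8.282 and 7.947 TPM.

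**Figure D1:**
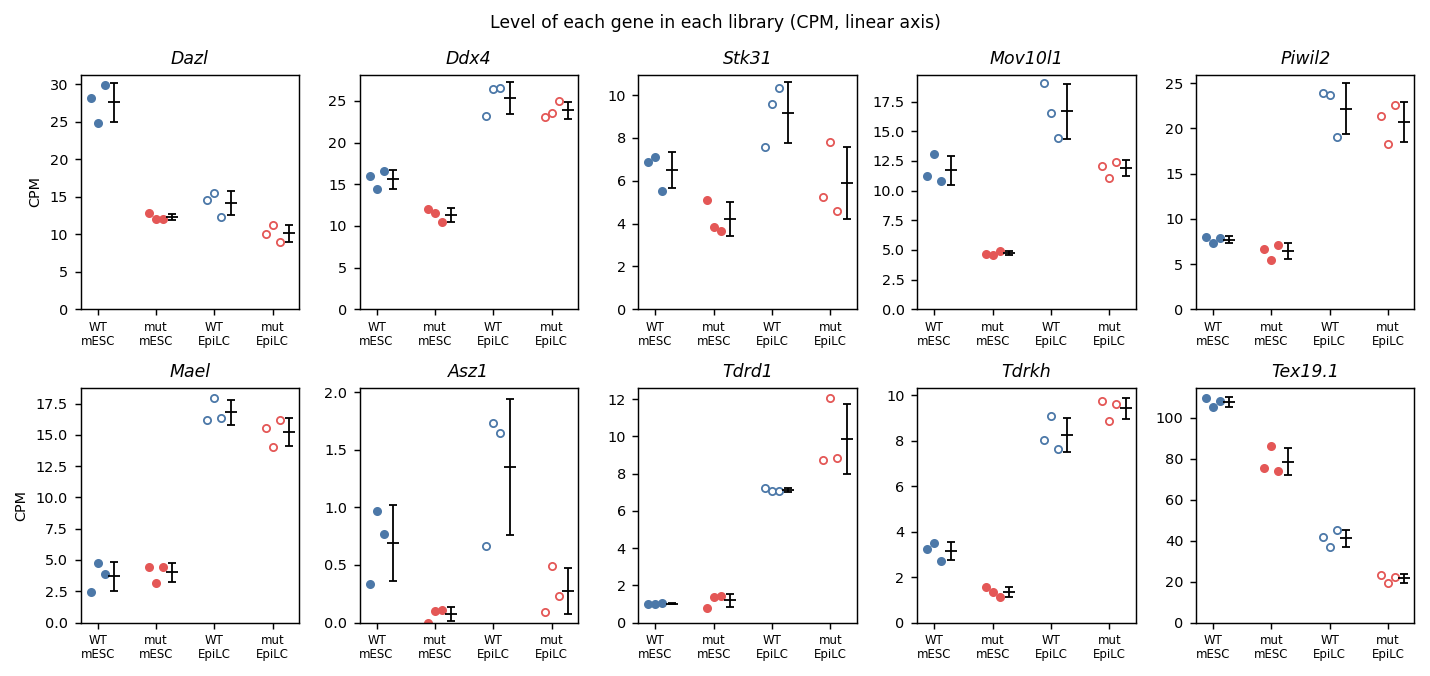
Level of each of the 10 genes in CPM (linear axis from 0) in each of the 12 libraries, with filled points for mESCs, open points for EpiLCs, blue for WT and red for mutant EPOP, and with the mean and SD of the 3 libraries as black bars. Every gene but Mael and Tdrd1 is lower in all 3 mutant than in all 3 WT mESC libraries, which held for 16.4% of all genes tested. Mael, Tdrd1 and Piwil2 differ mainly between the states.

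In mESCs, mutant cells had lower levels of 6 of the 9 genes that could be tested, Dazl, Mov10l1, Tdrkh, Stk31, Ddx4 and Tex19.1, and none was called higher. Mov10l1, Tdrkh and Dazl had the largest falls, each to less than 0.5 of the WT level, and Ddx4 and Tex19.1 kept 0.726 and 0.73 of it. Piwil2, Mael and Tdrd1 were not called. Over all 13879 genes tested, 18.5% were called in mutant mESCs, 10.1% lower and 8.40% higher (edgeR quasi-likelihood test, adjusted p under 0.05). The median log2 fold change was -0.46 over the 9 genes and 0.00 over all genes tested. Markers of two-cell-like cells, a rare state of mESC cultures that resembles the two-cell embryo, fell in the same libraries, from a summed 70.8 to 84.2 CPM in WT to 11.5 to 13.3 CPM in mutant mESCs. EpiLC markers were lower for 4 of 8 and higher for none, with a median of -0.57 on the log2 scale and a summed 188.8 to 207.6 CPM in WT and 175.8 to 179.3 CPM in mutant mESCs, where Fgf5 had no count. Most of that sum came from Dnmt3b and Dnmt3a, at 94.6 and 72.8 CPM in WT mESCs. Pou3f1, a transcription factor of the epiblast, was among the 4, with 8.56 ± 1.27 CPM in WT mESCs against 4.11 ± 1.57 CPM in mutant ones. The part of either list in these results was not tested. In bulk RNA, fewer cells that express a gene and less RNA per cell cannot be told apart.

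Dazl encodes an RNA-binding protein that controls translation in germ cells, and lies on chromosome 17 from 50279395 to 50293636 (GRCm38). Its level in the 3 WT mESC libraries was 28.2, 24.8 and 29.9 CPM, and in the 3 mutant ones 12.8, 12.1 and 12.0 CPM. Every mutant library was thus below every WT library, with little spread among the mutant ones. The change was -1.16 ± 0.13 (SE) on the log2 scale (edgeR adjusted p = 2.46e-12).

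Mov10l1 encodes the RNA helicase that feeds piRNA precursors into processing, and lies on chromosome 15 from 88982909 to 89055152. Its level was 11.2, 13.1 and 10.8 CPM in WT and 4.67, 4.58 and 4.90 CPM in mutant mESCs. The groups did not overlap, and the change of -1.32 ± 0.18 (SE) on the log2 scale, with an edgeR adjusted p = 4.89e-09, was the largest fall among the 9 genes.

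Tdrkh encodes a Tudor protein on mitochondria that holds PIWI proteins while piRNA ends are trimmed, and lies on chromosome 3 from 94413273 to 94434668. Its level was 3.21, 3.50 and 2.70 CPM in WT and 1.56, 1.35 and 1.11 CPM in mutant mESCs, again without overlap. Tdrkh had only 14, 13 and 10 counts in the mutant libraries. Its log2 fold change was -1.23 with an SE of 0.32 (edgeR adjusted p = 0.00224). Exons of Oaz3 on the opposite strand share 2255 of the 6142 exon bases of Tdrkh, and 34.7% of the 50-base words of its transcripts are found in other genes, Oaz3 among them. The sources used here do not say that counting used strand, so the Tdrkh values are uncertain to that extent. Oaz3 itself had 1 count over the 3 WT mESC libraries and 0 over the 3 mutant ones.

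Ddx4, the RNA helicase known as Vasa and a classical germ cell marker, lies on chromosome 13 from 112598333 to 112652475. It stood at 16.0, 14.4 and 16.6 CPM in WT and 12.0, 11.6 and 10.5 CPM in mutant mESCs, with a change of -0.46 ± 0.14 (SE) on the log2 scale (edgeR adjusted p = 0.0111). Stk31, a germ cell protein with a Tudor and a kinase-like domain, on chromosome 6 from 49395604 to 49469501, stood at 6.87, 7.09 and 5.52 CPM in WT and 5.12, 3.85 and 3.68 CPM in mutant mESCs. In both genes the groups were separate, but by small gaps. The Stk31 log2 fold change of -0.63 ± 0.23 (SE) had an edgeR adjusted p = 0.0413, which became 0.0678 with DESeq2, 0.0583 with limma-voom and 0.0505 with no filter on low counts. Without mutant mESC replicate 3 the Ddx4 call was lost (edgeR adjusted p = 0.0625), and without mutant replicate 2 or 3 or WT replicate 1 or 2 that of Stk31 was (0.134, 0.152, 0.112 and 0.151). Without mutant mESC replicate 3, 4 of the 9 genes were thus called, Dazl, Mov10l1, Tdrkh and Tex19.1.

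Tex19.1, a mammalian germline and placental gene known for restraining LINE-1 retrotransposition, lies on chromosome 11 from 121146143 to 121148319. Its level was 109.9, 105.3 and 108.2 CPM in WT and 75.5, 86.2 and 74.2 CPM in mutant mESCs. All mutant libraries were below all WT libraries, and the change was -0.45 ± 0.07 (SE) on the log2 scale (edgeR adjusted p = 4.26e-08). Its paralog Tex19.2 shares 2.67% of the 50-base words of Tex19.1 and had a mean of 1.97 ± 0.337 CPM in WT mESCs, so reads in that shared stretch may belong to either.

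The 3 genes without a call in mESCs are the PIWI protein gene Piwil2 (MILI, which binds piRNAs), Mael (Maelstrom, a nuage protein needed for transposon silencing) and Tdrd1 (a Tudor protein of nuage that binds MILI). Piwil2, on chromosome 14 from 70372477 to 70429383, was at 7.98, 7.28 and 7.84 CPM in WT and 6.67, 5.41 and 7.13 CPM in mutant cells. These groups did not overlap, yet the log2 fold change of -0.27 ± 0.18 (SE) did not pass the test (edgeR adjusted p = 0.34). Over all genes tested, 16.4% were lower and 15.4% higher in mutant mESCs without overlap, against 7 and 0 of the 9 genes. Mael, on chromosome 1 from 166201201 to 166238747, ranged from 2.44 to 4.76 CPM over the 6 mESC libraries, and Tdrd1, on chromosome 19 from 56826209 to 56870012, from 0.779 to 1.45 CPM. For both, the WT and mutant ranges overlapped, with log2 fold changes of 0.10 ± 0.24 (SE; edgeR adjusted p = 0.818) and 0.26 ± 0.42 (0.732). Tdrd1 had 7 to 13 counts in each mESC library, and its 95% interval of -0.56 to 1.08 on the log2 scale includes a change of the size measured for Tex19.1.

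Asz1, also called Gasz, encodes a scaffold protein that ties nuage to mitochondria, and lies on chromosome 6 from 18050964 to 18109061. It was below the filter on low counts and is not among the 9. Its counts were 3, 10 and 6 in the WT and 0, 1 and 1 in the mutant mESC libraries, and 6, 17 and 14 in the WT and 1, 4 and 2 in the mutant EpiLC libraries. In each state every mutant library had fewer counts than every WT library. Pooled per group and scaled to library size, WT was 9.66 times mutant in mESCs (exact 95% interval 2.33 to 85.6) and 5.35 times in EpiLCs (2.35 to 14.2), intervals that cover counting error only. When no filter on low counts was used, edgeR gave adjusted p = 0.028 in mESCs and adjusted p = 0.0258 in EpiLCs. In the authors' deposited table the log2 fold change of Asz1 in EpiLCs was -2.3354, with an FDR of 0.00276.

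**Figure D2:**
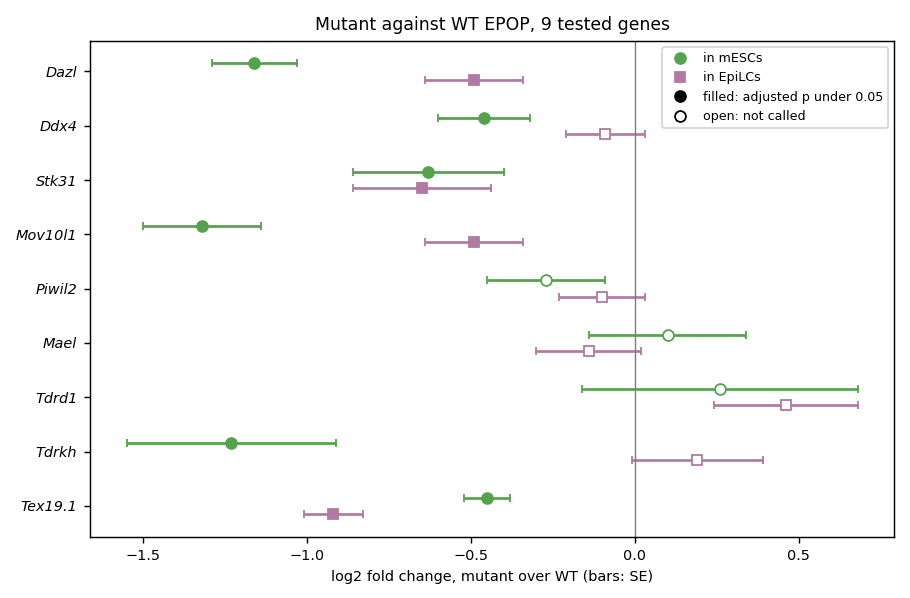
Log2 fold change of mutant over WT EPOP for the 9 tested genes, in mESCs (circles) and EpiLCs (squares), with bars for the SE and filled symbols for an edgeR adjusted p under 0.05. Dazl, Mov10l1, Stk31 and Tex19.1 are filled and left of 0 in both states, and Ddx4 and Tdrkh have a filled symbol in mESCs only.

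In EpiLCs, mutant cells had lower levels of 4 of the 9 tested genes, Tex19.1, Stk31, Dazl and Mov10l1, and again none was called higher. Tex19.1 fell most, to 0.523 of the WT level, and the other 3 kept 0.641 to 0.712 of it. Ddx4, Piwil2, Mael, Tdrkh and Tdrd1 were not called. Naive markers were lower for 10 of 10 (summed 791.6 to 815.8 CPM in WT and 485.4 to 497.6 CPM in mutant), EpiLC markers higher for 6 of 8 and lower for 2 (summed 1452.1 to 1506.8 and 1619.7 to 1646.7 CPM), and two-cell-like markers lower for 6 of 8 (summed 107.7 to 127.1 and 31.1 to 31.7 CPM) in mutant EpiLCs, and their part in these results was not tested. Most of the EpiLC marker sum came from Dnmt3a and Dnmt3b, which moved in opposite directions (704.1 to 559.8 and 306.8 to 408.8 CPM). Both are also among the DNA methylation genes below. Over all genes tested, 15.8% were called in mutant EpiLCs, 8.82% lower and 7.02% higher. The median log2 fold change was -0.14 over the 9 genes and 0.00 over all. The count was 2 of 9, Tex19.1 and Mov10l1, without WT EpiLC replicate 2 and also without mutant EpiLC replicate 3.

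Tex19.1 was at 41.6, 37.0 and 45.1 CPM in WT and 23.3, 19.11 and 22.4 CPM in mutant EpiLCs. The groups were far apart relative to their spread, and the change on the log2 scale was -0.92 ± 0.09 (SE, edgeR adjusted p = 6.66e-16). Dazl was at 14.6, 15.4 and 12.3 CPM in WT and 10.0, 11.2 and 8.94 CPM in mutant EpiLCs, with a change of -0.49 ± 0.15 (SE) on the log2 scale (edgeR adjusted p = 0.0117). Mov10l1 was at 19.06, 16.6 and 14.4 CPM in WT and 12.1, 11.1 and 12.4 CPM in mutant EpiLCs, with a log2 change of -0.49 and an SE of 0.15 (edgeR adjusted p = 0.0152). For both genes the mutant libraries lay just below the lowest WT library. The Dazl call was lost without mutant EpiLC replicate 3 or WT EpiLC replicate 2 (adjusted p = 0.0877 and 0.088), and that of Mov10l1 without mutant replicate 2 or WT replicate 1 (0.0735 and 0.145).

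Stk31 was at 7.58, 9.60 and 10.3 CPM in WT and 5.25, 7.79 and 4.59 CPM in mutant EpiLCs, where the highest mutant library lay above the lowest WT library. Its log2 fold change was -0.65 ± 0.21 (SE; edgeR adjusted p = 0.0207), and the call was lost without mutant EpiLC replicate 1 or 3 or WT EpiLC replicate 2 or 3 (0.114, 0.161, 0.0778 and 0.101). Tdrd1 went the other way in its values, with 7.25, 7.05 and 7.05 CPM in WT and 8.72, 12.1 and 8.83 CPM in mutant EpiLCs. These groups did not overlap, which held for 14.4% of all genes in that direction and 16.0% in the other, but the test was not passed (log2 fold change 0.46 ± 0.22 (SE), edgeR adjusted p = 0.139). The log2 fold changes of the other 4 genes were -0.09 ± 0.12 for Ddx4, -0.10 ± 0.13 for Piwil2, -0.14 ± 0.16 for Mael and 0.19 ± 0.20 for Tdrkh.

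Dazl, Mov10l1, Stk31 and Tex19.1 were called lower in both states, which is 4 of the 6 genes called in mESCs and 4 of the 4 called in EpiLCs. Over all genes tested, 409 of 13879, or 2.95%, were called lower in both.

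The size of the mutant effect differed between the states for 4 of the 9 genes when the difference itself was tested, as the log2 effect in EpiLCs minus that in mESCs. Tdrkh had a difference of 1.42 ± 0.38 (SE; edgeR adjusted p = 0.00545), with a fall in mESCs and a log2 fold change of 0.19 in EpiLCs. Mov10l1 had one of 0.82 ± 0.24 (adjusted p = 0.014) and Dazl one of 0.67 ± 0.20 (adjusted p = 0.0181), so both fell less in EpiLCs than in mESCs. Tex19.1 had a difference of -0.47 ± 0.11 (adjusted p = 0.00179) and fell more in EpiLCs. Ddx4, called in mESCs only, had a difference of 0.36 ± 0.18 that did not pass (adjusted p = 0.226). Over all genes tested the difference was called for 9.73%, with 4.68% above 0 and 5.05% below it. Without WT EpiLC replicate 3 the count was 2, Tdrkh and Tex19.1 (Dazl 0.0667 and Mov10l1 0.0502). The Dazl call was also lost without mutant EpiLC replicate 2 or WT mESC replicate 3 (0.0741 and 0.0544), and that of Mov10l1 without WT mESC replicate 2 (0.0648).

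From mESCs to EpiLCs with WT EPOP, the 9 tested genes divided, with 7 higher and 2 lower in EpiLCs. Tdrd1 rose most, to 7.12 times its mESC level, followed by Mael at 4.57, Piwil2 at 2.89 and Tdrkh at 2.63 times. Ddx4, Mov10l1 and Stk31 rose by 1.62, 1.43 and 1.41 times, and Tex19.1 and Dazl fell to 0.382 and 0.511 of their mESC level. Over all genes tested, 62.7% were called, 31.7% higher and 31.0% lower, so a call in this comparison was common. All 9 had WT EpiLC libraries that did not overlap the WT mESC ones, 7 higher and 2 lower, as did 33.3% and 31.9% of all genes. The state comparisons use the same libraries as those of mutant against WT, and their values are not independent of them.

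Tdrd1 went from 0.998, 0.971 and 1.03 CPM in WT mESCs to 7.25, 7.05 and 7.05 CPM in WT EpiLCs, and in mutant cells from 0.779, 1.35 and 1.45 to 8.72, 12.1 and 8.83 CPM. The states did not overlap with either EPOP, and the log2 fold changes were 2.82 ± 0.31 (SE; edgeR adjusted p = 1.02e-14) and 3.02 ± 0.29 (2.88e-18). Mael went from 2.44, 4.76 and 3.85 to 16.2, 18.0 and 16.3 CPM in WT cells and from 4.45, 3.12 and 4.46 to 15.6, 14.0 and 16.2 CPM in mutant cells. Mael rose by 2.18 ± 0.19 and 1.93 ± 0.19 (SE) on the log2 scale, and the 2 rises differed by -0.25 with a 95% interval of -0.80 to 0.31. Piwil2 rose by 1.53 ± 0.15 and 1.70 ± 0.16, reaching 23.97, 23.7 and 19.03 CPM in WT and 21.4, 18.3 and 22.6 CPM in mutant EpiLCs.

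With mutant EPOP, 6 of the 9 were higher in EpiLCs and 1, Tex19.1, was lower, where 66.0% of all genes tested were called, 33.4% higher and 32.6% lower. The states did not overlap for 6 higher and 2 lower genes, as for 34.4% and 33.7% of all genes. Tdrkh rose from 1.56, 1.35 and 1.11 to 9.75, 8.89 and 9.63 CPM, or 7.02 times, and Mov10l1 rose 2.51 times. Both started lower in mutant mESCs, and the difference of their steps from those in WT cells is the difference of effects given above. Dazl, at -0.29 ± 0.15 on the log2 scale (SE; edgeR adjusted p = 0.083), and Stk31, with 0.47 ± 0.24 (adjusted p = 0.071), were not called with mutant EPOP. Tex19.1 fell by 1.86 ± 0.08 on the log2 scale with mutant and by 1.39 ± 0.07 with WT EPOP. The Stk31 step in WT cells (adjusted p = 0.0343) was lost without WT mESC replicate 3 or WT EpiLC replicate 2 or 3 (0.136, 0.0975 and 0.137) and with DESeq2 (0.0529), and the step in mutant cells passed without mutant mESC replicate 1 (0.0381) or mutant EpiLC replicate 3 (0.0315).

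**Figure D3:**
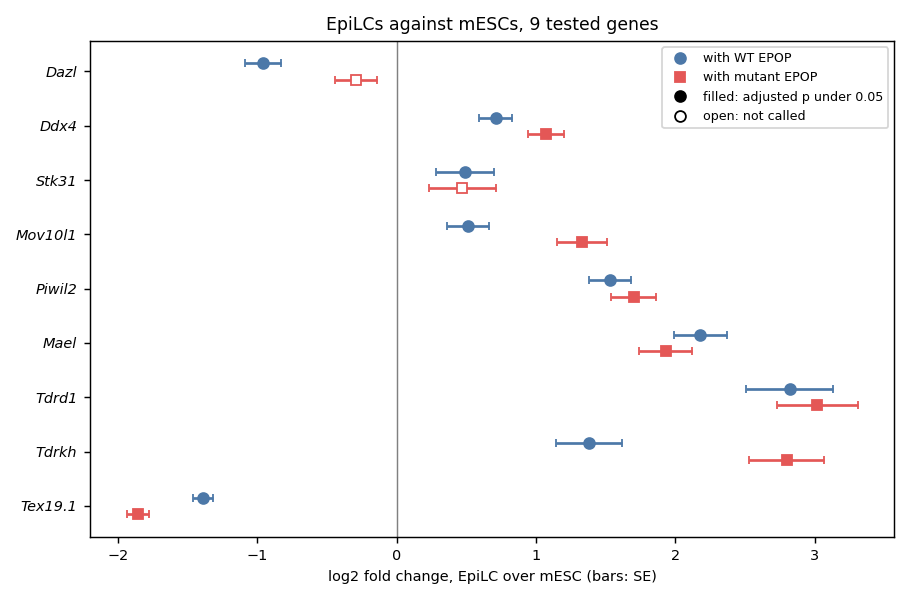
Log2 fold change of EpiLCs over mESCs for the 9 tested genes, with WT EPOP (circles) and mutant EPOP (squares), with bars for the SE and filled symbols for an edgeR adjusted p under 0.05. Tdrd1 and Mael lie far to the right with either EPOP, Tdrkh lies further right with mutant EPOP, and Tex19.1 lies to the left.

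The mean profile of the 9 genes over the 12 libraries, from log2 CPM scaled per gene, was compared with that of 12281 other genes whose mean reached 2 CPM. The closest were Gabarapl1, Prps2, Hdgfrp3, Ttll4 and Col4a1, with Pearson r of 0.991 to 0.985 over 12 libraries, which fall into 4 groups. Gabarapl1 had means of 31.7 and 18.7 CPM in WT and mutant mESCs and 52.3 and 38.3 CPM in WT and mutant EpiLCs. Among the 9 genes, Mov10l1, Ddx4 and Tdrkh lay closest to the mean of the other 8 (r of 0.94, 0.92 and 0.89), and Dazl (-0.18) and Tex19.1 (-0.67) ran apart from it. These values are descriptions without a test.

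Other genes of the piRNA pathway were read from a list of 25, of which 24 were in the table and 20 were tested. In mutant mESCs 6 were lower and 2 higher, against 10.1% and 8.40% of all genes tested. In mutant EpiLCs 6 were lower and none higher, against 8.82% and 7.02% of all genes. The list medians were -0.21 and -0.17 on the log2 scale. The 2 higher ones were Gtsf1l and Pnldc1, with log2 fold changes of 0.74 and 0.48 (edgeR adjusted p = 0.0215 and 0.00666). Tex15, a nuclear factor of piRNA-directed silencing, fell from 12.9 ± 2.64 to 4.43 ± 0.74 CPM in mESCs (edgeR adjusted p = 5.03e-10), Rnf17, a Tudor protein of germ cells, from 32.1 ± 3.25 to 13.4 ± 1.71 CPM (1.03e-17), and Gpat2, a mitochondrial acyltransferase that takes part in primary piRNA production, from 15.3 ± 2.12 to 6.31 ± 1.34 CPM (4.86e-10). In EpiLCs the largest falls were those of Morc1, a nuclear repressor of transposons, from 23.3 ± 2.48 to 8.77 ± 0.519 CPM (7.52e-21), of Fkbp6, a co-chaperone of piRNA loading, from 8.03 ± 0.973 to 4.58 ± 1.05 CPM (0.00575), and of Piwil4 (MIWI2, the nuclear PIWI protein), from 12.3 ± 2.12 to 7.50 ± 1.24 CPM (0.0055). From mESCs to EpiLCs, 7 of the 20 were higher and 6 lower with WT EPOP, as were 31.7% and 31.0% of all genes tested. With mutant EPOP 11 were higher and 5 lower, as were 33.4% and 32.6% of all genes. The largest changes were those of Gtsf1l, Morc1 and Piwil4, at -2.55, -2.39 and 2.09 on the log2 scale with WT EPOP. With mutant EPOP they were -3.68, -3.47 and 2.35.

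Of the other germline RNA-binding genes, 20 were listed and 13 tested. Of these, 4 were lower and none higher in mutant mESCs, where 10.1% of all genes tested were lower. In mutant EpiLCs 1 was lower and none higher, near the 8.82% of all genes that were lower there. Cpeb1, which controls poly(A) tails of stored mRNAs, fell from 2.51 ± 0.798 to 1.08 ± 0.265 CPM in mESCs (edgeR adjusted p = 0.00715), and Rbmxl2, a testis RNA-binding protein, from 99.5 ± 4.01 to 64.5 ± 1.30 CPM (9.68e-15). Rbmxl2 was also the one lower in EpiLCs, from 89.4 ± 4.26 to 76.0 ± 5.33 CPM (0.00368). The list medians were -0.06 in mESCs and 0.10 in EpiLCs.

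The PRC1.6 complex was read through 14 subunits, all of them tested, and their median log2 fold change was 0.02 in mESCs and -0.02 in EpiLCs. Of the 14, 4 were higher and 1 lower in mutant mESCs, against 8.40% and 10.1% of all genes tested. In mutant EpiLCs 1 was higher and 1 lower, near the 7.02% and 8.82% of all genes. Pcgf6, the subunit that defines the complex, went from 78.9 ± 2.46 to 91.5 ± 9.52 CPM in mESCs (edgeR adjusted p = 0.0125), L3mbtl2 from 153.2 ± 4.61 to 176.9 ± 4.67 CPM (9.49e-04) and Mga from 342.8 ± 5.52 to 383.7 ± 12.2 CPM (0.00163). In EpiLCs Rybp, a RING1-binding subunit, went from 197.9 ± 6.95 to 167.7 ± 6.90 CPM (1.23e-04).

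Among 14 genes of DNA methylation, 3 were lower and 1 higher in mutant mESCs, against 10.1% and 8.40% of all genes tested. In mutant EpiLCs 6 were lower and 1 higher, against 8.82% and 7.02% of all genes. Dnmt3l, the cofactor of the new-methylation enzymes, rose from 10.5 ± 0.504 to 22.4 ± 2.21 CPM in mESCs (edgeR adjusted p = 2.10e-16), while Tet3, which oxidises methylcytosine, fell from 32.8 ± 1.77 to 16.2 ± 2.17 CPM (2.42e-15) and Dnmt3a fell from 72.8 ± 5.28 to 53.6 ± 1.57 CPM (4.86e-10). In mutant EpiLCs the largest changes were falls of Tet2 (145.8 ± 4.61 to 78.8 ± 7.58 CPM, edgeR adjusted p = 2.56e-22), Zfp57 (198.1 ± 6.6 to 110.0 ± 6.71 CPM, 5.12e-31) and Tet1 (634.2 ± 41.9 to 421.8 ± 29.3 CPM, 1.97e-23). Dnmt3b was the 1 gene higher there (log2 fold change 0.415, 8.61e-15). Dnmt3l was lower there (-0.269, 1.53e-05), and its effect differed between the states by -1.37 ± 0.12 (3.89e-19). Between the states, Dnmt3a and Dnmt3l rose with either EPOP, in WT cells by 3.27 ± 0.05 and 4.46 ± 0.08 on the log2 scale. DNA methylation itself was not measured in these files.

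**Figure D4:**
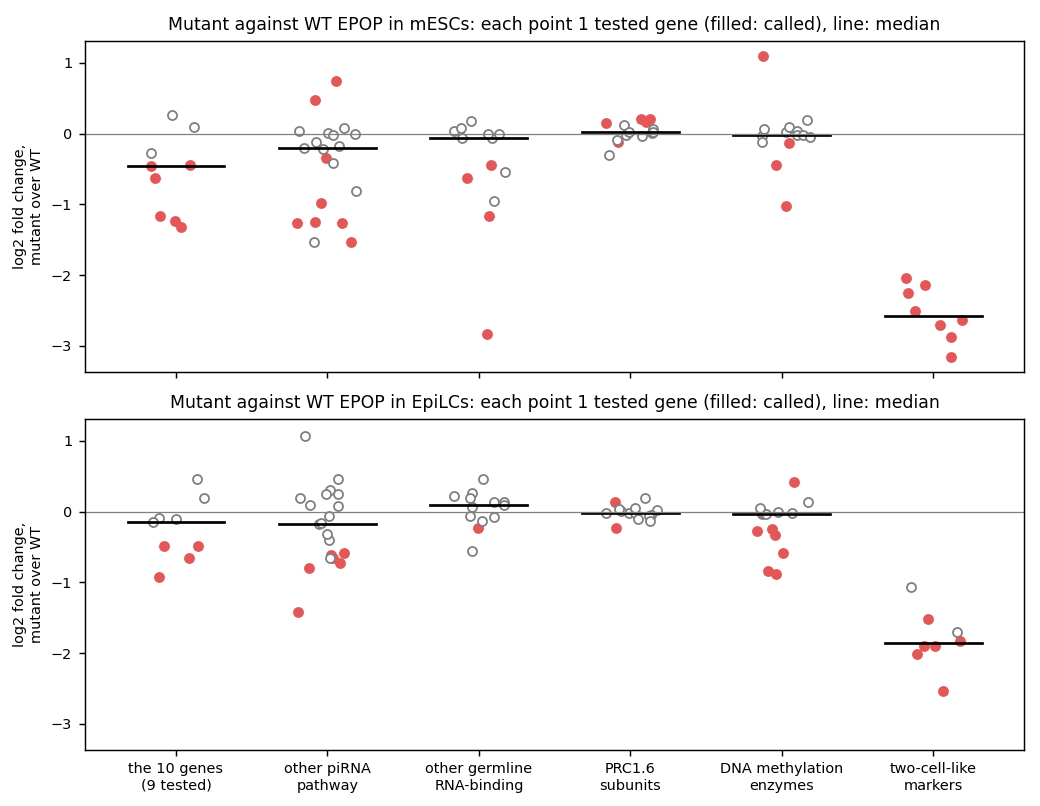
Log2 fold change of mutant over WT EPOP in mESCs (top) and EpiLCs (bottom) for the 9 tested genes, for 4 related lists and for two-cell-like markers, with 1 point for each tested gene, filled where the edgeR adjusted p was under 0.05, and a line at each median. The median of the 9 genes lies at -0.46 in mESCs and -0.14 in EpiLCs, that of the PRC1.6 list at 0.02 and -0.02, and that of the two-cell-like markers at -2.57 and -1.86.

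Markers of the cell types that such cultures could hold were read beside these results. For their counts, the shares of all genes tested were 10.1% lower and 8.40% higher in mutant mESCs. In mutant EpiLCs they were 8.82% and 7.02%. Two-cell-like markers, of which 8 of 12 in the table were tested, had all 8 lower in mutant mESCs and 6 lower in mutant EpiLCs. Tcstv1, one of the 12, had no count in mutant mESCs. Primordial germ cell markers were lower in 2 of 10 in mutant mESCs (summed 1469.8 to 1558.8 CPM in WT and 1314.5 to 1353.6 CPM in mutant) and in 6 of 10 in mutant EpiLCs (867.1 to 940.0 and 753.7 to 785.1 CPM), led there by Prdm14 and Tfap2c, and their part was not tested either. Prdm14 was near the floor in EpiLCs, at 0.712 ± 0.457 CPM in WT and 0.144 ± 0.128 CPM in mutant cells. Tfap2c fell there from 9.9 ± 1.88 to 3 ± 0.639 CPM. Most of the sum in EpiLCs came from Dppa5a, at 812.8 CPM in WT and 700.2 CPM in mutant cells. The naive list also holds 1 of the 10, Prdm14.

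Markers of later germ cells were read as well. The 9 late spermatogenic markers in the table summed to 0.73 to 2.83 CPM over the 12 libraries, with Prm2 and Tnp1 at no count in WT mESCs, and 7 of the 9 at no count in mutant mESCs. The 10 oocyte markers summed to 5.99 to 9.91 CPM in mESCs and 1.26 to 3.29 CPM in EpiLCs, with Zp2, Figla and Oosp1 at no count in both kinds of mESC, and the single oocyte marker that passed the filter was Zp3, a gene of the egg coat, with 6.87 ± 1.70 CPM in WT mESCs against 7.22 ± 1.82 CPM in mutant ones. Fibroblast markers summed to 19.8 to 28.7 CPM in WT and 10.2 to 13.7 CPM in mutant mESCs, with 2 of 6 tested lower, and to 39.2 to 45.5 and 30.4 to 38.6 CPM in EpiLCs, with 2 lower and 1 higher. Col3a1 had no count in any group, and Dcn, Lum and Postn none in mESCs. Primitive endoderm markers summed to 191.8 to 211.5 CPM in WT and 183.6 to 193.9 CPM in mutant mESCs, with 2 of 10 lower and 1 higher, and to 195.9 to 202.9 and 114.7 to 123.7 CPM in EpiLCs, with 5 lower. Most of the endoderm sum in mESCs came from Lama1 and Col4a1, which moved in opposite directions. Lama1 rose from 110.7 to 144.7 CPM and Col4a1 fell from 74.1 to 34.8 CPM, so the sum hides both changes. Pdgfra is in both the fibroblast and the endoderm list. What part the fibroblast and endoderm markers have in the results was not tested.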

How the data were processed

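The authors deposited raw counts per gene for 12 libraries. The submitters' processing notes list edgeR 3.18.1, STAR 2.5.3a, FastQC 0.11.2 and Subread's featureCounts, with mm10, and name no strand setting. A score close to CPM, also deposited by the authors, was not used. The authors' deposited TPM columns served only to compare levels between genes. From the authors' deposited comparisons, the log2 value and adjusted p-value (FDR) of Asz1 are quoted.

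The 26 features with spreadsheet dates as names (0.182 to 0.212% of counts) were left out. Genes passing filterByExpr (13879) were scaled by TMM and tested with edgeR 4.0.16 (glmQLFit, robust, and glmQLFTest) in R 4.3.3, in 1 fit to 12 libraries with 8 residual degrees of freedom, and p-values were adjusted by Benjamini-Hochberg over all genes. SE is the log2 fold change over the root of F, and 95% intervals use the normal quantile. No pair of replicates was as close as sampling alone would make it (chi-square over its degrees of freedom 1.91 to 3). The fit was also run on simulated counts with known changes. These gave every gene the same spread and changed few genes in only 1 group, so they say little about genes whose spread differs. Named genes are the 10 genes, up to 3 called genes with the largest change (at 2 CPM or more) of each list and comparison, and 5 genes of like profile (log2 of CPM plus 0.5). A few others are named where the text gives their counts or direction. Positions and exon overlaps are from GENCODE M21, and 50-base words from its transcripts. The genes, lists and rule were chosen with earlier results of these data known. Alternatives were RLE size factors, DESeq2 1.42.0, limma-voom (limma 3.58.1), other filters, fewer groups, a replicate block and leaving out each library.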

Additional observations from a re-analysis of the deposited data

Results flagged for a closer look

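The effect of mutant EPOP on 4 of the 9 tested genes differed between the states, in edgeR's test of the difference of log2 effects (EpiLCs minus mESCs). The difference was 1.42 for Tdrkh, which fell in mESCs and was not called in EpiLCs (log2 fold change 0.19). It was 0.82 for Mov10l1 and 0.67 for Dazl, whose falls were larger in mESCs, and -0.47 for Tex19.1, whose fall was larger in EpiLCs. The direction was the same in all 18 alternatives for each of the 4 genes.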

How the results depend on the processing

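With relative log expression factors, DESeq2, limma-voom, 2 other filters, a fit to the compared groups only or a replicate block, the number of the 10 genes called stayed within 1.5 times of the reported one in each of the 5 comparisons. Leaving out 1 library at a time gave 5 to 7 genes called in mESCs and 2 to 5 in EpiLCs for mutant against WT, 2 to 4 for the difference of effects, and 8 to 9 and 7 to 8 for the state step in WT and mutant cells. These counts add Asz1, which passed the filter in 10 of the 12 fits and was called in 8 in mESCs and 9 in EpiLCs. It failed the filter without WT EpiLC replicate 2 or 3, the libraries with its highest counts (17 and 14). Asz1 thus enters these fits through the group where it is high, and its calls there add no support for its fall. Of the 9 genes alone, 4 to 6 were called in mESCs and 2 to 4 in EpiLCs. Among single genes, 3 uncalled values changed sign when a library was left out: Mael in mESCs ranged from -0.12 (without WT mESC replicate 1) to 0.36, and for the difference of effects Tdrd1 ranged from -0.02 (without mutant mESC replicate 1) to 0.36 and Stk31 from -0.26 to 0.14, with 6 values above 0. The cause was not tested. In all, 25 single-gene calls were lost and 2 gained among the alternatives, most of them of Stk31, and 810 kept direction and side of the threshold. With a replicate block the number of all genes called was 2581 in mESCs and 2251 in EpiLCs for mutant against WT, against 2574 and 2198 without it, and 6 and 4 of the 9 genes were called as before. No clear pairing by replicate number was seen. Of 18 same-numbered pairs, 1 had a correlation over 0.1 (range -0.047 to 0.131, against -0.107 to 0.119 for other pairs). Of 12 libraries, 6 correlated best with their own number. A weak pairing is not excluded by these values. Depth limits Asz1 and Tdrd1 in mESCs, and Tdrkh in mutant mESCs, where it had 14, 13 and 10 counts.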
